A study of Mus musculus with 34 samples.

Results

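The genes described here are *Calca*, which encodes calcitonin and the neuropeptide CGRP, and the genes for the CGRP receptor and its relatives: *Calcrl*, *Ramp1*, *Ramp2* and *Ramp3*. They are 5 of the 25852 genes in the tables. The members were selected on their levels and shares of positive cells in these same samples, so those values are a description. Their differences between genotypes are given with standard errors from the fit over all genes, and no p-value is drawn from them. Ear skin cells were sorted singly and sequenced by mCEL-Seq2, which tags every captured RNA molecule with a random barcode (UMI), in 34 libraries. Mast cells (MCs) were sorted as CD45+ lineage-negative YFP+ cells. They came from male mice aged 7 weeks: 3 WT mice, which were Mcpt5-Cre littermates with intact *Tln1* and the R26 LSL:YFP reporter, and 3 Tln1 KO mice, with the same Cre and reporter and floxed *Tln1*. Mcpt5-Cre acts in connective tissue-type MCs, and *Tln1* encodes talin-1, which links integrins to actin. The line was kept on an albino C57BL/6J background. The third group was CD45-negative GFP+ cells of Myh11-GFP skin, where a smooth muscle promoter drives GFP in vascular smooth muscle cells (VSMCs) and pericytes. The labels do not say from how many mice these came, so they were treated as 1 sample in 4 libraries, without a test.

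CGRP widens blood vessels and is best known as a peptide of sensory nerve endings. *Calcrl* encodes the calcitonin receptor-like receptor, which needs a RAMP partner to reach the cell surface. With RAMP1 it forms the CGRP receptor, and with RAMP2 or RAMP3 it forms receptors for adrenomedullin. *Calca* RNA is spliced to yield calcitonin or CGRP, and since the tables count per gene, the product could not be told apart here. In GRCm38, *Calca* lies at chr7:114631478-114636357 on the minus strand, *Calcrl* at chr2:84330626-84425411 on the minus strand, and *Ramp1* at chr1:91179822-91225196, *Ramp2* at chr11:101246028-101259546 and *Ramp3* at chr11:6658521-6677475 on the plus strand.

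Cells with over 1000 transcripts were kept, which left 338, 294 and 272 MCs of WT mice 1, 2 and 3, then 285, 354 and 934 MCs of Tln1 KO mice 1, 2 and 3, and 330 Myh11-GFP cells. Well barcodes came from 2 fixed sets of 96, of which a library used mainly 1 (17 cells lay in the other), so the libraries of a set share their barcodes without sharing cells. Libraries held 58 to 97 such cells and 297694 to 964834 transcripts. Predicted genes named Gm and a number took 14.2% of transcripts in Tln1 KO mouse 3 and 58.01% in WT mouse 3, so levels are given per 10000 transcripts outside them. *Tln1* itself was at 4.51, 5.92 and 6.71 for WT mice 1, 2 and 3, and at 5.57, 4.33 and 3.63 for Tln1 KO mice 1, 2 and 3, so the genotypes overlapped. Reads came from the 3′ end of RNAs, and whether that end lies in the deleted stretch is not given in the sources used here, so this is no check of the labels. All 11 MC markers were found in every mouse, with a summed level of 657 to 908 per 10000 in MCs and 0.25 in Myh11-GFP cells. Myh11-GFP cells had summed levels of 123.5 for VSMC, 126.8 for pericyte and 133.7 for fibroblast markers. In 7 of the 30 MC libraries, markers of fibroblasts, macrophages or keratinocytes summed to over 30 per 10000, a limit set after seeing the data. Fibroblast markers reached 359.7 in library 1 of WT mouse 2, 184.2 in library 2 of WT mouse 3, 48.9 in library 16 of WT mouse 1 and 36.5 in library 3 of Tln1 KO mouse 1. Library 3 of WT mouse 2 had 92.3 from macrophage and 72.8 from keratinocyte markers, library 8 of Tln1 KO mouse 3 had 133.7 from keratinocyte markers and an MC marker sum of 333, and library 10 of that mouse had 38.04 from macrophage markers.

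*Calca*, the ligand gene, gave UMIs in the MC libraries of all 6 mice but at very different levels. WT mice 2 and 3 gave only 4 UMIs each. In WT mouse 2, 3 of these lay in library 3, which was rich in macrophage and keratinocyte markers. *Calca* reached 0.925 per 10000 in WT mouse 1, but 0.0349 in WT mouse 2 and 0.0572 in WT mouse 3. It reached 0.988, 1.13 and 0.313 in Tln1 KO mice 1, 2 and 3. WT mouse 1 thus lay beside the first pair of Tln1 KO mice, WT mice 2 and 3 lay lowest, and the genotypes overlapped. The means were 0.339 ± 0.508 in WT and 0.81 ± 0.436 in Tln1 KO mice (SD, n = 3 each).

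**Figure D1:**
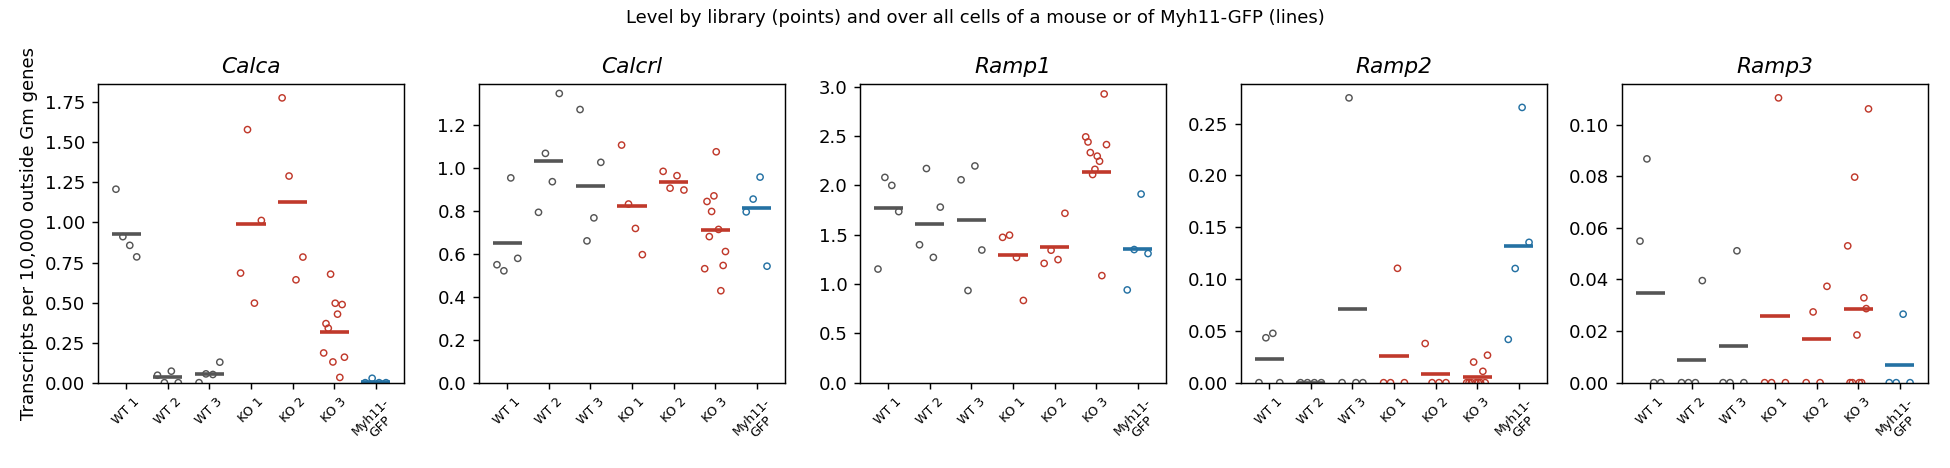
Level of each member gene, in transcripts per 10000 outside Gm genes, in each library (points) and over all cells of a mouse or of Myh11-GFP (lines), each gene on its own linear axis. *Calca* was near 0 in WT mice 2 and 3 and in Myh11-GFP cells, while *Calcrl* and *Ramp1* were found at like levels in MCs and Myh11-GFP cells.

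The differences between mice were seen across their libraries. The 4 libraries of WT mouse 1 ran from 0.785 to 1.21 per 10000, whereas those of WT mouse 2 ran from 0 to 0.0719 and those of WT mouse 3 from 0 to 0.128. The libraries of Tln1 KO mouse 1 held 0.497 to 1.58 and those of Tln1 KO mouse 2 held 0.642 to 1.78. In the 10 libraries of Tln1 KO mouse 3 the lowest was 0.0329, the median 0.354 and the highest 0.677. No library of WT mice 2 and 3 reached the lowest library of WT mouse 1 or of Tln1 KO mice 1 and 2. Without the 7 libraries rich in markers of other cells, the levels were 0.98, 0 and 0.058 for WT mice 1, 2 and 3. They were then 1.14, 1.13 and 0.393 for Tln1 KO mice 1, 2 and 3, so WT mouse 1 still lay within the range of the Tln1 KO mice.

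In the fit over all genes, the *Calca* difference of Tln1 KO minus WT mice was 2.38 on the log2 scale, with a pseudocount of 1 per 1000000 transcripts and a standard error of 0.96. It was 3.69 without WT mouse 1, 1.56 without WT mouse 2, and 3.23 ± 1.16 without the 7 libraries. WT mice 2 and 3 had 4 *Calca* UMIs each, and WT mouse 2 was at 0 without the 7 libraries. The size of these log2 differences thus depends on values near 0 and on the pseudocount. The labels give no batch. By which barcodes took the stray reads of their unused wells, a grouping made from the data, the libraries of WT mouse 1 were most like those of Tln1 KO mouse 1, where the levels were 0.925 and 0.988. The libraries of WT mice 2 and 3 were most like each other and then those of Tln1 KO mouse 2, where the levels were 0.0349 and 0.0572 against 1.13, and Tln1 KO mouse 3 stood alone. Over all genes, limma with Benjamini-Hochberg adjustment called 0 of 8601 (0% of those tested) between genotypes, with 502 (5.84%) at an unadjusted p under 0.05. The mice of the genotypes did not overlap for 11.6% of all genes tested. *Calca*, *Calcrl* and *Ramp1* were the 3 members that passed the filter of 10 transcripts in 3 mice, and each overlapped. The fibroblast marker sum was 18.03, 68.6 and 49.6 per 10000 for WT mice 1, 2 and 3. It was 9.41, 1.69 and 0.833 for Tln1 KO mice 1, 2 and 3. The higher sums came from single libraries: without the 7 libraries they were 6.02, 1.42 and 2.23 in the WT mice and 1.22, 1.69 and 0.77 in the Tln1 KO mice. The macrophage marker sum was 41.3 and 16.2 in WT mice 2 and 3, where *Calca* was lowest, and 1.19 to 7.53 in the other mice. Without the 7 libraries it was 15.5 and 8.34 in WT mice 2 and 3 and 1.19 to 3.05 in the others, and its part in the *Calca* levels was not tested.

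*Calca* was held by few cells. At least 1 UMI was found in 7.1%, 0.68% and 1.47% of MCs of WT mice 1, 2 and 3, and in 8.42%, 10.7% and 6.85% of those of Tln1 KO mice 1, 2 and 3. In Myh11-GFP cells, which should lack it, 1 of 330 cells was positive (0.303%, exact 95% binomial interval 0.00767% to 1.68%), at a median depth of 4516 UMIs against 4038 to 5986 in the MCs of the mice. The share in WT mouse 2 had an interval of 0.0825% to 2.44%, and that in WT mouse 3 one of 0.402% to 3.72%, so both overlapped the Myh11-GFP share. These intervals cover counting error only. With every cell thinned to 1000 UMIs outside Gm genes, which left out 305 shallower cells, the shares were 5.53%, 0.382% and 0.51% in WT and 6.25%, 5.92% and 3.03% in Tln1 KO mice 1, 2 and 3.

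The positive cells did not hold like amounts. Of the positive MCs, 80 had 1 UMI, 48 had 2 to 4 and 28 had 5 or more, up to 16 in a cell of Tln1 KO mouse 2. These 28 cells held 54.98% of the 462 *Calca* UMIs. They came from WT mouse 1 (4 cells) and Tln1 KO mice 1, 2 and 3 (6, 8 and 10 cells), and none from WT mice 2 and 3, whose highest cells had 3 UMIs and 1 UMI. Wells of the barcode set that a library did not use gave 9 *Calca* UMIs in 9 wells, 1 UMI each, of 3247 such wells at or under 1000 transcripts. These wells held 346606 transcripts outside Gm genes in all, too few per well to bear on cells with several UMIs. Over these wells *Calca* stood at 0.451 per 10000 in Tln1 KO mouse 3 and 0.81 in Tln1 KO mouse 2, and at 0 in all WT mice and Tln1 KO mouse 1. How much of the single UMIs in cells came from such stray reads was not tested.

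**Figure D2:**
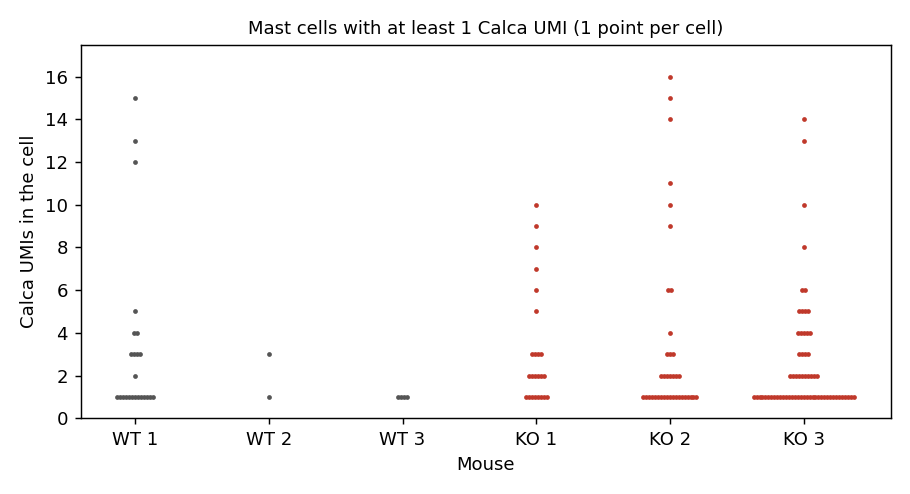
*Calca* UMIs per cell (linear axis) in the MCs with at least 1, 1 point per cell, by mouse. Cells with 5 or more UMIs were present in WT mouse 1 and all 3 Tln1 KO mice and absent in WT mice 2 and 3.

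*Calca*-positive cells had the MC markers. In thinned cells, grouped by their *Calca* UMIs after thinning, the MC marker sum was 811 per 10000 in positive and 819 in negative cells of WT mouse 1. The values were 829.3 and 872 in Tln1 KO mouse 1, 636 and 686 in mouse 2, and 708 and 693 in mouse 3. Sensory neuron markers, of which 7 of 8 had rows, summed to 0.0418 to 0.132 per 10000 in the negative cells of these 4 mice, a level too low to be seen in so few positive cells, where they summed to 0. Merkel cell markers summed to 0 in the positive cells of WT mouse 1 and Tln1 KO mice 2 and 3, and to 1.33 per 10000 in Tln1 KO mouse 1, against 0.311 in its negative cells.

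Other genes were compared between *Calca*-positive and *Calca*-negative MCs over the 4 mice with at least 10 positive cells after thinning, with 14, 15, 19 and 28 positive cells at 1000 UMIs each and negative sums thinned to the same total. Cells counted as negative if no *Calca* UMI was left after thinning, so some had held *Calca* UMIs before it. In Tln1 KO mouse 3, 64 cells were positive before thinning and 28 after. limma with the mouse as a block called 0 of 306 genes (0%) after Benjamini-Hochberg adjustment, and 22 (7.19%) at an unadjusted p under 0.05. At this depth most genes were too low to be tested. The following genes were chosen after their values were seen. *Slco2b1*, which encodes an organic anion transporter, differed by 1.61 ± 0.35 (log2, positive minus negative, standard error; adjusted p = 0.209 from limma) and *Espn*, which encodes the actin bundler espin, by 1.13 ± 0.29 (adjusted p = 0.243 from limma). *Fos*, an immediate early transcription factor gene, differed by −1.25 ± 0.43 (adjusted p = 0.40 from limma). Of 11 immediate early genes, 7 were tested and 0 called, with a median log2 difference of −0.39 against 0.03 over all genes tested. They did not go one way: *Fos*, *Jun*, *Egr1* and *Dusp1* were lower, whereas *Fosb*, *Junb* and *Nr4a1* differed by 0.17, 0.23 and 0.002. *Nr4a3*, outside this list, differed by 0.72 ± 0.22 (adjusted p = 0.40 from limma).

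Across the 30 MC library sums, the genes most like *Calca* were *Ccdc88a* (Spearman's rho 0.85), *Lrrfip1* (0.84), *Gpn1* (0.83), *Cald1* (0.81) and *B130021K23Rik* (0.81), out of 6047 genes found in all 30. Libraries of a mouse share their mouse and depth, so these are a description. No gene reached a Pearson's r of 0.3 with *Calcrl* or *Ramp1* over 307 thinned Myh11-GFP cells.

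*Calcrl*, the receptor gene, varied less between MCs of different mice than *Calca* did. WT mice 1, 2 and 3 had *Calcrl* at 0.647, 1.03 and 0.915 per 10000. Tln1 KO mice 1, 2 and 3 had 0.82, 0.934 and 0.708. The genotypes overlapped, with means of 0.864 ± 0.196 and 0.821 ± 0.113 (SD, n = 3 each). In the fit over all genes the difference was −0.02 on the log2 scale (standard error 0.25). WT mouse 1, with *Calca* at 0.925, had the lowest *Calcrl* level, whereas Tln1 KO mouse 2, with the most *Calca* at 1.13, had *Calcrl* at 0.934.

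*Ramp1*, which encodes the partner that makes the CGRP receptor, was the highest of the RAMP genes by transcripts in MCs. In MCs of WT mice 1, 2 and 3 it stood at 1.77, 1.61 and 1.64 per 10000. Its levels for Tln1 KO mice 1, 2 and 3 were 1.29, 1.38 and 2.13, and the means were 1.68 ± 0.0823 in WT and 1.6 ± 0.461 in Tln1 KO mice (SD, n = 3 each). Tln1 KO mouse 3 was highest and the other Tln1 KO mice lowest, so the genotypes overlapped. The log2 difference was −0.07 (standard error 0.21). In Tln1 KO mouse 3 the library rich in keratinocyte markers had 1.09 and the others 2.11 to 2.93. Without that library its level was 2.35.

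Shares of positive cells depended on the UMIs per cell. Before thinning, *Ramp1* was found in 24.9% to 59.4% of the MCs of a mouse and *Calcrl* in 12.4% to 30.9%. At 1000 UMIs per cell the shares were 10.4% to 20.2% for *Ramp1* and 5.93% to 13.4% for *Calcrl*. Tln1 KO mouse 3 had the highest *Ramp1* share both ways. In thinned cells, *Calcrl* and *Ramp1* were found together in 2, 7 and 3 MCs from WT mice 1, 2 and 3, where their shares multiplied gave 2.02, 5.48 and 2.37. In Tln1 KO mice 1, 2 and 3 they were found together in 7, 4 and 12 cells, against 2.4, 2.37 and 15.1. *Calca* and *Ramp1* were found together in 2, 0 and 1 cells of the WT mice, where their shares multiplied gave 1.88, 0.156 and 0.148. They were found together in 3, 2 and 6 cells of the Tln1 KO mice, against 1.56, 2.25 and 5.64.

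**Figure D3:**
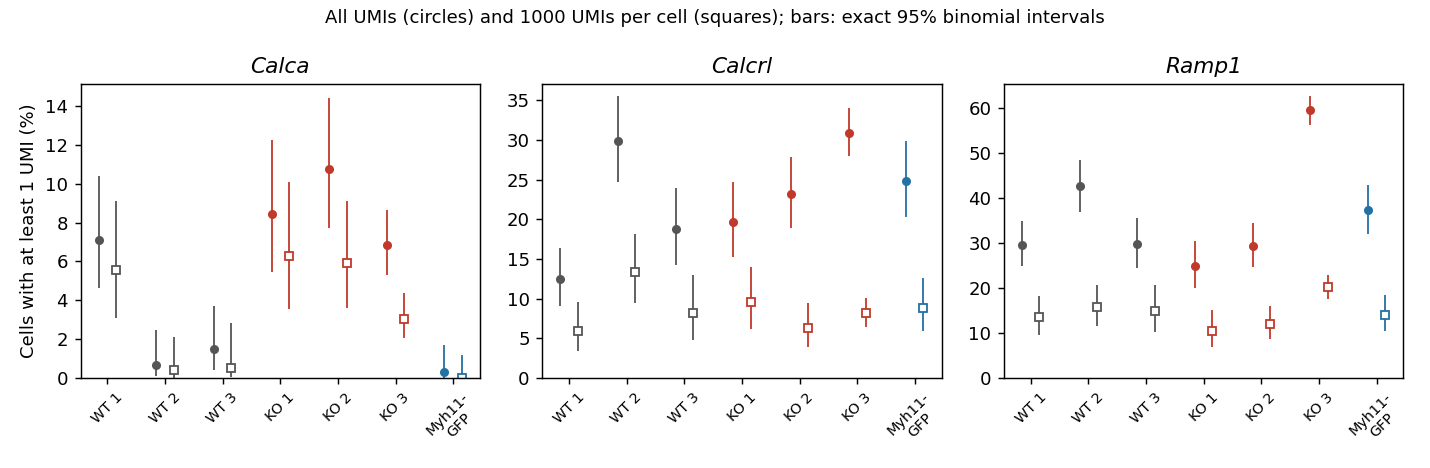
Share of cells (%) with at least 1 UMI of *Calca*, *Calcrl* or *Ramp1*, with all UMIs (circles) and with 1000 UMIs per cell (squares), with exact 95% binomial intervals. Thinning lowered the *Ramp1* share of Tln1 KO mouse 3 from 59.4% to 20.2%, and *Calca* shares of WT mice 2 and 3 were low both ways.

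*Ramp2* and *Ramp3*, whose products make adrenomedullin receptors, were near the limit of detection in MCs. *Ramp2* gave 2, 0 and 5 UMIs for WT mice 1, 2 and 3, and 2, 1 and 3 for Tln1 KO mice 1, 2 and 3. In WT mouse 2, 0 of 294 cells had a UMI, and a count of 0 allows up to 1.02% of cells with a UMI, which does not limit the share that expresses the gene. All 5 UMIs of WT mouse 3 came from its library rich in fibroblast markers. *Ramp3* gave 3, 1 and 1 UMIs in the WT mice and 2, 2 and 15 in the Tln1 KO mice, the last being 0.0286 per 10000. Both genes stayed under the filter of the genotype fit.

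In Myh11-GFP cells the receptor genes were present and the ligand gene was not above 1 UMI. *Calcrl* stood at 0.794, 0.854, 0.956 and 0.542 per 10000 in libraries 13 to 16 and at 0.813 over all cells (exact 95% Poisson interval 0.672 to 0.974). *Ramp1* stood at 0.94, 1.35, 1.91 and 1.31 and at 1.35 over all cells (1.17 to 1.56). Both lay within the range of the MCs of the 6 mice. *Ramp2* stood at 0.132 (0.0795 to 0.206), from 19 UMIs, and at 0.0846 without library 15. The highest MC mouse, WT mouse 3, had 0.0715 (0.0232 to 0.167), which overlapped, as did the intervals of WT mouse 1 and Tln1 KO mouse 1. The intervals of WT mouse 2 (0 to 0.0321), Tln1 KO mouse 2 (0.000215 to 0.0473) and Tln1 KO mouse 3 (0.00118 to 0.0167) lay below that of Myh11-GFP cells. All these intervals cover counting error only. *Ramp3* had 1 UMI in 330 cells.

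The Myh11-GFP cells fell into 10 clusters when grouped without the member genes. *Calcrl*, with *Ramp1* the receptor pair for CGRP, was at 1.62 per 10000 (exact 95% Poisson interval 1.06 to 2.37) in the 44 cells of a VSMC-like cluster and at 0.718 (0.506 to 0.99) in 2 pericyte-like clusters of 59 and 56 cells. *Ramp1* was at 2.11 (1.46 to 2.95) in the VSMC-like and 1.88 (1.53 to 2.3) in the pericyte-like cells, so their intervals overlapped. These values depended on the clustering: at a finer resolution of 1.5, where more cells were VSMC-like, they had *Calcrl* at 1.09 and *Ramp1* at 1.2, and at 0.5 no cluster was VSMC-like. *Calcrl* in pericyte-like cells was 0.723 and 0.595 at these resolutions. In 130 cells of 3 unnamed clusters *Calcrl* was at 0.939 and *Ramp1* at 0.857. Of the 19 *Ramp2* UMIs, 12 lay in an endothelial-like cluster of 6 cells, at 3.75 per 10000 (1.94 to 6.55), and 0 in the VSMC-like cells, where the level could be up to 0.229 by the exact interval. At resolution 0.5 no cluster was endothelial-like, and the pericyte-like cells held 13 *Ramp2* UMIs, at 0.368 per 10000. A striated muscle-like cluster of 18 cells held all 8 Myh11-GFP cells that came from the unused barcode set.

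**Figure D4:**
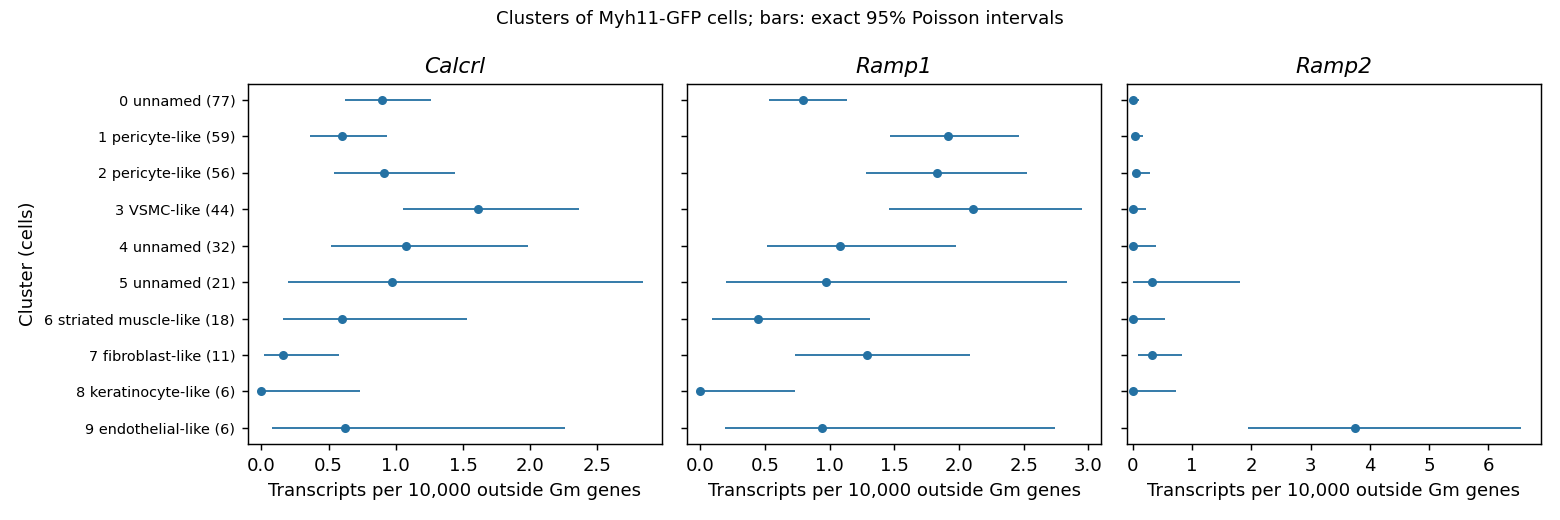
Level of *Calcrl*, *Ramp1* and *Ramp2* (transcripts per 10000 outside Gm genes, linear axes) in each cluster of Myh11-GFP cells, with exact 95% Poisson intervals that cover counting error only. *Ramp2* was highest in the endothelial-like cluster of 6 cells, and *Ramp1* was 1.83 to 2.11 in the pericyte-like and VSMC-like clusters.

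Of the other ligand genes, *Calcb*, which encodes the second CGRP, was at 0 in 4 of 6 MC mice and in Myh11-GFP cells. *Adm*, for adrenomedullin, was at 0.0128 to 0.0959 per 10000 in MCs and 0.16 in Myh11-GFP cells. In Tln1 KO mouse 3, 39 of its 43 *Adm* UMIs lay in library 8. In WT mouse 2, 8 of its 11 lay in library 3. Both libraries were rich in markers of other cells. *Crcp*, for a CGRP receptor component, was at 0.143 to 0.282 in MCs and 0.146 in Myh11-GFP cells, while *Ackr3*, for a scavenger of adrenomedullin, reached 0.542 in Myh11-GFP cells. Among genes that process peptides, *Furin*, for a proprotein convertase, was high in MCs at 6.59 to 9.5 per 10000 and at 0.972 in Myh11-GFP cells. *Pam*, for the enzyme that amidates peptides, was at 0.0897 to 0.301 in MCs and 1.02 in Myh11-GFP cells, and *Pcsk1* and *Pcsk2*, for neuroendocrine convertases, were at or under 0.0349 in both. Another gene of that group, *Cpe*, was at 0 to 0.209 in MCs and 9.59 in Myh11-GFP cells. *Mme*, for neprilysin, which degrades CGRP, was at 1.36 to 4.84 in MCs and 2.75 in Myh11-GFP cells.

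Between genotypes, 0 of 5 tested peptide processing genes, 0 of 3 breakdown genes and 0 of 21 genes of G protein and cyclic AMP signalling were called in either direction, as was the case for all genes. The median log2 differences of these 3 lists were 0.06, −0.11 and 0.05, against −0.002 over all genes tested. The largest difference among the 5 tested peptide processing genes was that of *Cpe*, at −2.87 ± 0.82 (standard error, adjusted p = 0.644 from limma). Its levels in MCs were low, at 0.0809, 0.209 and 0.172 for WT mice 1, 2 and 3. They were 0.0128, 0 and 0.0306 for Tln1 KO mice 1, 2 and 3. The WT mice also had the higher fibroblast marker sums, whose part in the *Cpe* difference was not tested. Of the other lists, 0 of 1 tested receptor gene, 0 of 2 neuropeptide genes and 0 of 10 immediate early genes were called, and no other ligand gene passed the filter. *Gnas*, for the stimulatory G protein alpha subunit to which the CGRP receptor couples, was at 0.934 to 2.56 per 10000 in MCs and 5.41 in Myh11-GFP cells. *Adcy7*, for an adenylyl cyclase, was at 1.26 to 2.44 in MCs and 0.0208 in Myh11-GFP cells, and *Adcy6* at 0.0858 to 0.231 and 2.5. *Kcnj8* and *Abcc9*, for subunits of the vascular KATP channel, were at 1.67 and 2.64 in Myh11-GFP cells, and both are also in the pericyte marker list. None of the 5 genes of that mural list passed the filter for the genotype fit. Of the other neuropeptide genes, *Penk*, for proenkephalin, was at 0.52, 0.0262 and 0.129 for WT mice 1, 2 and 3. It was at 0.81, 0.408 and 0.0841 for Tln1 KO mice 1, 2 and 3.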

How the data were processed

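The deposited tables hold the authors' transcript numbers per gene and well: per the paper's methods and processing notes, reads were demultiplexed (bcl2fastq 2.17.1.14), aligned with BWA 0.6.2-r126 to mouse gene models (mm10), reads with several places were discarded, and UMIs were corrected by binomial statistics. These corrected values were turned back into whole UMIs where UMIs are given. The mouse was taken from the number in the title. Members and lists were chosen with earlier results of these data known. Gene positions come from GENCODE M21 (GRCm38). Spike-in rows were left out. Cells were sorted singly, and no doublet caller was run. Mouse sums were fitted in R 4.3.3 with limma 3.58.1 with an intensity trend. Its input was the log2 value of each gene's transcripts scaled to 1000000 and TMM factors, with a pseudocount of 1, for genes with at least 10 transcripts in 3 mice, with Benjamini-Hochberg adjustment at 0.05. Myh11-GFP cells were clustered with scanpy and leidenalg (resolution 1), and a cluster was named from at least 3 markers, each in 25% of its cells and 2-fold above the others.

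The first design of the fit of *Calca*-positive against *Calca*-negative cells used all 6 mice and sums of unequal depth. When tested on simulated data, it called many unchanged genes lower. It was therefore replaced, after its result had been seen, by sums of equal depth over mice with at least 10 positive cells, which was chosen among several candidate fits on simulated data. The result of the first design is given with the alternatives. Named genes were to be those called that pointed one way in all mice, and there were none.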

Additional observations from a re-analysis of the deposited data

Results flagged for a closer look

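*Calcrl* was found in 13.7% of cells of Myh11-GFP library 16, against 26.9%, 28.2% and 29.1% in the other 3 libraries. Chance sets a library of 4 apart in this way in about 1 of 20 groups. Library 16 also had the fewest UMIs per cell, with a median of 2980 against 5247, 5579 and 4478.5 in libraries 13, 14 and 15. The part of this depth in its low share was not tested. Wells of the barcode sets not in use held 9 UMIs of *Calca*, 9 of *Calcrl* and 20 of *Ramp1*, each above the 3 that a count of 0 allows. Their source was not tested.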

How the results depend on the processing

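The *Calca* difference between genotypes kept its direction under all 21 alternatives, from 1.56 to 3.69 when each mouse was left out. Of these, the replicate block could not change it from 2.38, since each block holds a WT and a Tln1 KO mouse. Between genotypes 0 genes were called, also with the replicate block, but 2 with voom weights, 4 with the library set as a term (the likeness of unused wells, chosen after seeing the data) and 0 to 12 without each mouse, with 12, all lower, without Tln1 KO mouse 1 and 1 without WT mouse 1. Same-numbered mice did not deviate together (correlations 0.16, −0.21 and −0.27), so the numbers were not taken to pair them.

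Between *Calca*-positive and *Calca*-negative cells, the first design called 1567 of 4423 genes, all lower. These calls are not results, since the same fit called unchanged genes lower in simulated data. The fit reported in its place called 0, and 1 with 2000 UMIs per cell, 2 with another draw of UMIs, 3 with 2 *Calca* UMIs before thinning, and 0 to 1 without each mouse, the 1 without Tln1 KO mouse 3. It called 0 without the replicate block. The draw, the 2 UMIs before thinning and the equal depth were chosen after seeing the data.

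With Gm genes in the total, mean levels in MCs were 0.30 for *Calca* (0.575 without them), 0.469 for *Calcrl* and 0.951 for *Ramp1*. Mean shares with at least 2 UMIs were 2.95% for *Calca* (5.88% with at least 1), 5.24% for *Calcrl*, 13.4% for *Ramp1*, 0.12% for *Ramp2* and 0.0714% for *Ramp3*, and at 1000 UMIs per cell 3.6% for *Calca*, 8.57% for *Calcrl*, 14.4% for *Ramp1* and 0.202% for *Ramp3*. *Ramp1* in VSMC-like cells was 1.2 per 10000 at resolution 1.5, and at 0.5 no cluster was VSMC-like. Leaving out each mouse gave mean MC levels of 0.464 to 0.683 for *Calca*, and leaving out each library gave 1.16 to 1.56 for *Ramp1* in Myh11-GFP cells. edgeR and DESeq2 were not run, neither on the corrected transcripts nor on the whole UMIs recovered from them.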
